A study of Mus musculus with 74 samples.

Results

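Imprinted genes are described here across mouse embryonic stem (ES) cells that differ in line, clone, leukaemia inhibitory factor (LIF) and Nanog level. The rule named 35 imprinted genes, and 34 of them have a row among the 37620 genes of the deposited tables. Kcnq1ot1 was not analysed here. The study asked how Nanog sustains self-renewal. RNA-seq was analysed in 35 libraries of 12 groups, all from E14Tg2a cells or derivatives of them grown in serum. Tg2a FCS (n = 3) is the wild-type line with LIF. Nanog SunTag cells carry a doxycycline (Dox)-inducible dCas9 and VP64 activator and a guide RNA to the endogenous Nanog promoter. Each SunTag line is 1 picked clone, C1 or C2, so that clone and line are the same thing. These cells were analysed with LIF without Dox (n = 3) and with Dox (n = 2), and without LIF without Dox (n = 3) and with Dox (n = 3), after 72 h of treatment. Nanog/Otx SunTag cells, clones C1ON3 and C2ON3, were made from Nanog SunTag C1 and C2 by adding a guide to Otx2. They were analysed with LIF without Dox (n = 3), with LIF and Dox (n = 4), without LIF and Dox (n = 4) and without LIF with Dox (n = 4). The 44iN line is Nanog-null and carries a Dox-inducible Nanog transgene. It was analysed in LIF with Dox, 24 h after Dox removal, and after long-term (LT) culture without Dox (n = 2 each). By the paper's methods, long-term culture of 44iN cells without Nanog was under G418 selection, which is not stated for the other 44iN groups. Nothing in the labels says that libraries of 1 clone came from separate cultures, and p-values then measure only the spread between these libraries.

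An imprinted gene is read mainly from the maternal or mainly from the paternal chromosome. The choice is set in the germ line by DNA methylation at control regions and is kept through cell division by a maintenance machinery that includes Dnmt1, Uhrf1, Zfp57 and Trim28. Most imprinted genes lie in clusters that share a control region, and many act on growth, placenta or brain. ES cells in culture are known to vary in imprinted expression between lines and between subclones, and the RNA level does not say which allele was read.

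Values are normalised counts, that is, estimated counts divided by the size factor of each library. Library totals ran from 6107512 estimated counts, in the Nanog/Otx SunTag library C2ON3-1 with LIF without Dox, to 92244655, with a median of 29298745. The listed imprinted genes took between 0.123% and 0.448% of the counts of a library. Of the 34 genes, 24 had at least 10 normalised counts in every library. Kcnq1 (a potassium channel, at most 11.5 normalised counts) and Airn (the noncoding antisense RNA of the Igf2r locus, at most 16.8) were near the lower limit of detection almost everywhere. Nanog lay at 228 to 276 normalised counts in 44iN LT and at 706 to 739 after 24 h without Dox, against 13366 to 18394 in 44iN with Dox. Under the guide to Nanog alone it lay at 21940 to 29487 with LIF without Dox and at 75226 to 93813 with Dox, and at 2234 to 8484 and 45041 to 55641 without LIF. With both guides it lay at 18320 to 20533 and 40628 to 48558 with LIF and at 1974 to 6867 and 31697 to 48471 without, and Otx2 at 736 to 1062, 3214 to 3806, 3372 to 5148 and 6827 to 7347 in the same groups. The targeted genes thus moved as the labels state. The 9 markers of undifferentiated ES cells, Nanog among them, summed to between 41976 and 254614 normalised counts in every library. All p-values are adjusted over all genes tested by the Benjamini-Hochberg method after edgeR's quasi-likelihood test, and a gene is called at an adjusted p under 0.05.

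The promoters shown are those of the members called between clones with both sets of guides, except H19, which was not matched. They run from 250 bases before to 50 bases after the annotated start in RefSeq (build GRCm38.p6, plus or minus strand as given), whereas the gene coordinates given later are those of mm9. Capitals mark GCGGCA, the reverse complement of TGCCGC, the methylated core that Zfp57 is known to bind.
Plagl1 (chr10:13090582-13090881, plus strand): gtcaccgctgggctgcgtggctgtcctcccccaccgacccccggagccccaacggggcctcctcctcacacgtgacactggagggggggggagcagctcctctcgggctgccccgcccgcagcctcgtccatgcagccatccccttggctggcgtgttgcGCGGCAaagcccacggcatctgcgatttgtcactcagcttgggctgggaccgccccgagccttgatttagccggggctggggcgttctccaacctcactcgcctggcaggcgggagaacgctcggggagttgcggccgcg
Zrsr1 (chr11:22971755-22972054, plus strand): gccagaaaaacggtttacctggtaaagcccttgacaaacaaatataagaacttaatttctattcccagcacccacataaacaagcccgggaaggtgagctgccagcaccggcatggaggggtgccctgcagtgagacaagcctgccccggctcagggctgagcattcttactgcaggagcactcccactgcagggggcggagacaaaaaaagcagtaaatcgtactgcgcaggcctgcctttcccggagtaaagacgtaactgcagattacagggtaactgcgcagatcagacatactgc
Peg3 (chr7:6730370-6730669, minus strand): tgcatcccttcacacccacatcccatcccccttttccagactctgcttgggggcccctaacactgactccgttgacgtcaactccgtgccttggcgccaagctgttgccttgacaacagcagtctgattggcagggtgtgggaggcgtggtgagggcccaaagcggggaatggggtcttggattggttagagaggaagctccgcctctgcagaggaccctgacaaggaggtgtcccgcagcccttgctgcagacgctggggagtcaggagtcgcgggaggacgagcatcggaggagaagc
Mest (chr6:30737800-30738099, plus strand): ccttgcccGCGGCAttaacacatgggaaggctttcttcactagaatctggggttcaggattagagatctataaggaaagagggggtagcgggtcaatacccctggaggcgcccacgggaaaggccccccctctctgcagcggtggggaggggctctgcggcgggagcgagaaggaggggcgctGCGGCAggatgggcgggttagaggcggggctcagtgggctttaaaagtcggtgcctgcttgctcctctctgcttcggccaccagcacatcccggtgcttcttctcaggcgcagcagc
The windows shown for Plagl1 and Mest hold 1 and 2 copies of GCGGCA, and those of Zrsr1 and Peg3 hold none on either strand. Another annotated start of Mest (chr6:30733256-30733555, plus strand), not shown, has a window with none on either strand and 8 CG pairs. TGCCGC on either strand was present in 11.6% of all 32851 promoter windows of 300 bases, and in 11 of the 43 windows (25.6%) that the table holds for 29 imprinted genes, which belong to 10 genes. The windows shown contain 26 CG pairs for Plagl1, 17 for Mest, 13 for Peg3 and 10 for Zrsr1, against a median of 7 over all windows. A match is a description of the letters only. H19, Peg10, Cdkn1c, Kcnq1, Impact and Sgce were not matched.

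First, the clones were compared within the 4 conditions of LIF and Dox. Plagl1 and H19 stood out: both were several-fold higher in the C2 lineage than in the C1 lineage, with or without LIF and with or without Dox. Plagl1 (mm9 chr10:12810497-12851500, plus strand) encodes a paternally expressed zinc finger factor that restrains growth. In Nanog SunTag C1 it measured 72.3 normalised counts with LIF, 61.5 with LIF and Dox, 74.9 and 86.6 without LIF, and 56.4 and 67.7 without LIF with Dox. In C2 it measured 575 and 469 with LIF, 997 with LIF and Dox, 490 without LIF and 411 without LIF with Dox. The clones did not overlap, and Tg2a, at 254, 575 and 467, lay above every C1 library and below the highest C2 library. The change was 2.97 ± 0.21 on the log2 scale (SE, C2 against C1, 5 and 6 libraries, edgeR adjusted p = 7.45e-05). The derived clones repeated it, with 41.0 to 124 normalised counts (median 62.6) in C1ON3 and 243 to 652 (median 301) in C2ON3, again with no overlap (2.33 ± 0.12, 7 against 8 libraries, edgeR adjusted p = 4.86e-09). Within conditions, the ratio of the clone means was 6.07 to 16.2 for C2 over C1 and 4.45 to 5.51 for C2ON3 over C1ON3.

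H19 (mm9 chr7:149761434-149764048, minus strand), the maternally expressed noncoding RNA next to Igf2, had 214 normalised counts in C1 with LIF, 157 with LIF and Dox, 1117 and 927 without LIF, and 315 and 428 without LIF with Dox. In C2 it had 2015 and 1657, 1255, 3797, and 2156 in the same order. Every C2 library was above every C1 library (2.58 ± 0.19, edgeR adjusted p = 9.01e-05). It was 374 to 952 in C1ON3 and 1366 to 3968 in C2ON3, with no overlap (2.09 ± 0.13, edgeR adjusted p = 1.6e-08). The Tg2a libraries, at 737, 1499 and 2357, reached from the upper part of the C1 range into the C2 range. The ratio of clone means was 3.72 to 8.57 under the guide to Nanog and 3.24 to 4.74 under both guides. Igf2, the growth factor that shares enhancers with H19, was not called between clones (-0.71 ± 0.28, edgeR adjusted p = 0.147, and -0.28 ± 0.20, adjusted p = 0.285).

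**Figure D1:**
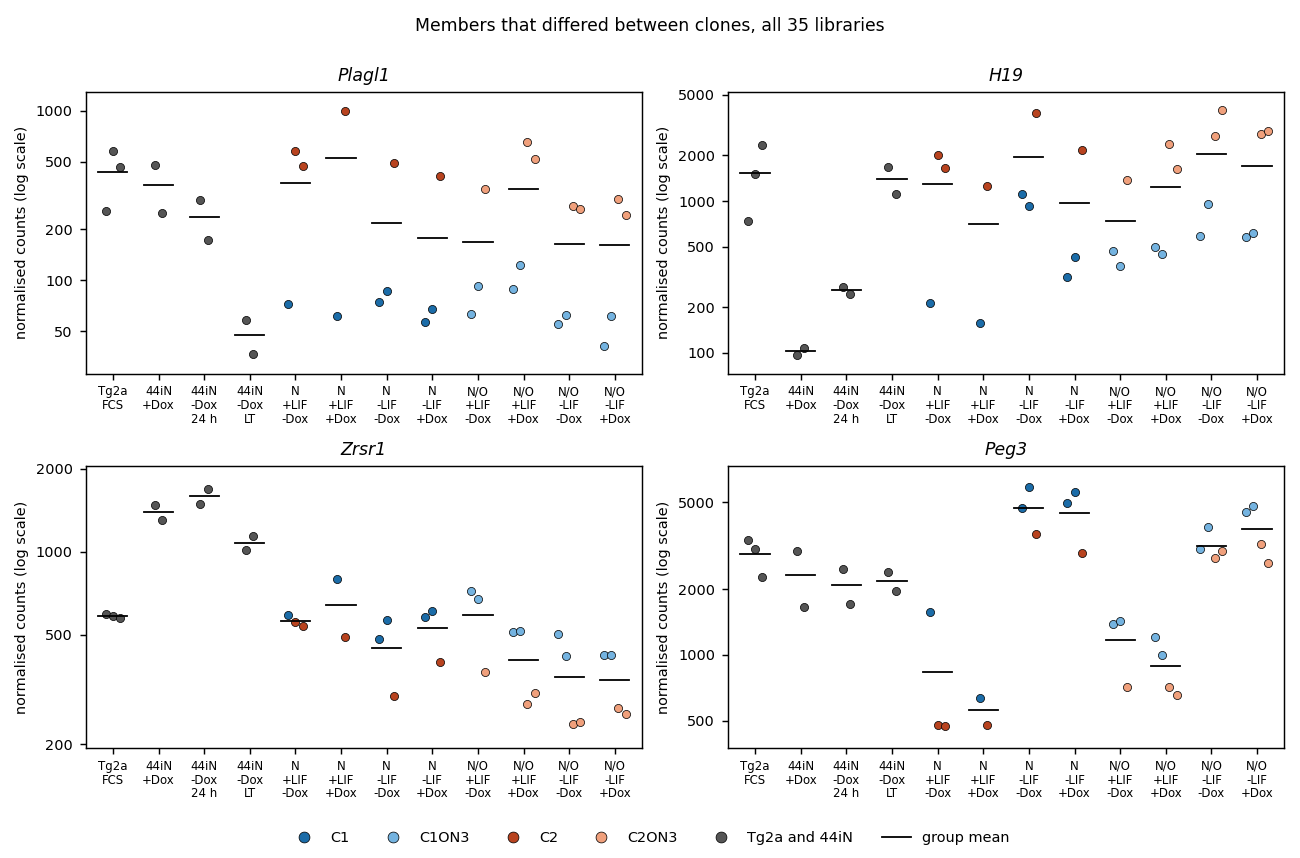
Normalised counts (log scale) of Plagl1, H19, Zrsr1 and Peg3 in all 35 libraries by group, with each point a library coloured by clone and each bar the group mean. Plagl1 is at 124 or less in every C1 and C1ON3 library and at 243 or more in every C2 and C2ON3 library.

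In the opposite direction, Zrsr1, Peg3 and Mest were lower in the C2 lineage in both comparisons. Zrsr1 (mm9 chr11:22873215-22876498, plus strand), a paternally expressed splicing factor relative inside an intron of Commd1, was at 483 to 793 normalised counts in C1 (median of 6 libraries 584) and at 555, 538, 491, 299 and 397 in C2. Those ranges overlapped (-0.54 ± 0.13, edgeR adjusted p = 0.0288). In the derived clones they did not, with 419 to 722 in C1ON3 and 237 to 366 in C2ON3 (-0.82 ± 0.065, edgeR adjusted p = 1.82e-07). Peg3 (mm9 chr7:6656603-6683132, minus strand), a paternally expressed zinc finger protein, was at 1569 in C1 against 476 and 472 in C2 with LIF, 636 against 479 with LIF and Dox, 4688 and 5872 against 3587 without LIF, and 4966 and 5577 against 2914 without LIF with Dox. C1 was above C2 in every condition, although the ranges over all conditions overlapped (-0.92 ± 0.18, edgeR adjusted p = 0.014, and -0.59 ± 0.089, adjusted p = 0.000123, in the derived clones). Mest (mm9 chr6:30673547-30698457, plus strand), a paternally expressed protein of the hydrolase fold, differed by -0.39 ± 0.095 (edgeR adjusted p = 0.035) and -0.39 ± 0.11 (adjusted p = 0.00973). Leaving out the C2 library without LIF with Dox raised the adjusted p of Peg3 in the first comparison to 0.0511, and Mest and Zrsr1 each lost the call there in 8 of 11 omissions of 1 library.

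In all, 8 of 32 tested imprinted genes were called between C1 and C2 (5 higher and 3 lower in C2), where 7.23% of all 15624 genes tested were called (4.34% higher, 2.89% lower). Between C1ON3 and C2ON3, 13 of 32 were called (5 higher and 8 lower), where 35.2% of all 15609 genes were (15.8% higher, 19.5% lower). The members' shares were thus 25.0% and 40.6%, and their median log2 change was -0.03 and 0.01, against -0.02 and -0.02 over all genes. Of these, H19, Mest, Peg3, Plagl1 and Zrsr1 were called in both with the same sign, which is 62.5% of the first list and 38.5% of the second. Over all genes, 943 were called in both comparisons, 942 of them with the same sign, which is 83.5% of the 1129 genes of the first list and 17.1% of the 5500 of the second. These comparisons share no library, but C1ON3 and C2ON3 descend from C1 and C2. Ratios of clone means were on the same side of 1 in all 8 conditions for 8 of the 32 imprinted genes tested, and for 14.6% of the 15023 genes tested in both comparisons. Dlk1, H19 and Plagl1 were above, and Mest, Mkrn3, Peg3, Slc22a18 and Zrsr1 below.

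**Figure D2:**
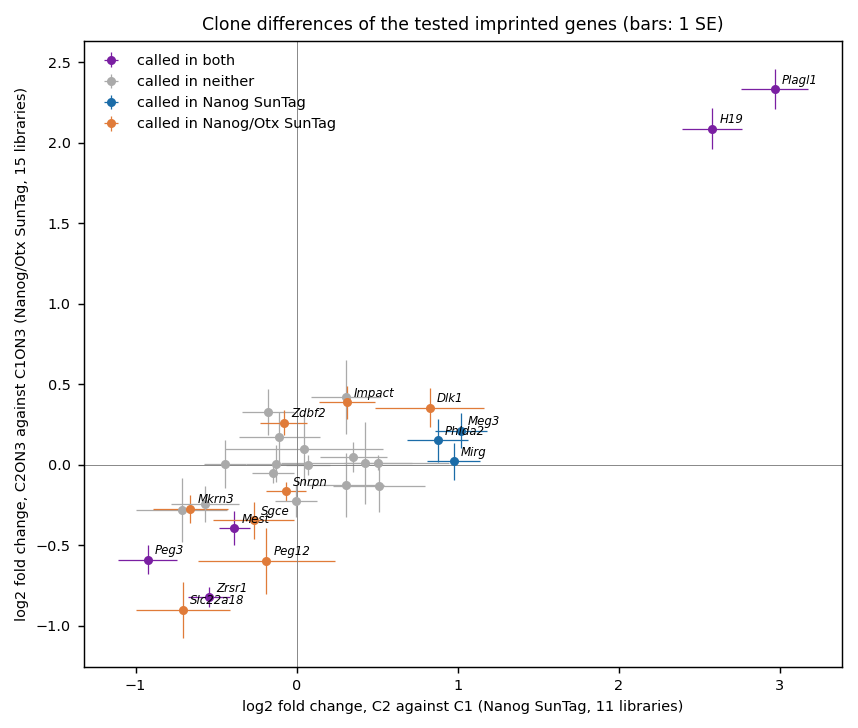
Log2 fold change of the tested imprinted genes between clones, C2 against C1 (x axis) and C2ON3 against C1ON3 (y axis), with bars of 1 SE and colours for the calls. Plagl1 (2.97 and 2.33) and H19 (2.58 and 2.09) lie apart from the other genes on both axes.

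Other genes were called with 1 set of guides, and whether the sets differ was not tested. Meg3 (1.02 ± 0.16, edgeR adjusted p = 0.00429) and Mirg (0.98 ± 0.16, adjusted p = 0.00609), maternally expressed noncoding RNAs of the Dlk1-Dio3 cluster, were higher in C2 than in C1. In the derived clones their differences were 0.21 ± 0.11 (edgeR adjusted p = 0.154) and 0.02 ± 0.11 (adjusted p = 0.918). Phlda2, which limits placental growth, was higher in C2 (0.87 ± 0.19, edgeR adjusted p = 0.0207). That call was lost without either of the libraries C1-2 (0.053) and C2-1 (0.11) without LIF and Dox, or without C2-2 without LIF with Dox (0.056). Called between the derived clones and not between C1 and C2 were 8 genes. Slc22a18 (a membrane transporter, -0.90 ± 0.18), Peg12 (-0.60), Sgce (epsilon-sarcoglycan, -0.35), Mkrn3 (a ubiquitin ligase of the makorin family, -0.27) and Snrpn (the spliceosomal protein SmN, -0.17) were lower in C2ON3. Impact (a regulator of the amino acid starvation response, 0.39 ± 0.10), Dlk1 (a transmembrane ligand related to Notch ligands, 0.35) and Zdbf2 (0.26) were higher. With the replicate number of the sample titles as a block, Snrpn was no longer called (edgeR adjusted p = 0.0591), whereas Peg10 (0.37, adjusted p = 0.00358) and Ascl2 (0.45, adjusted p = 0.0409) were. With the numbers of the column names, which differ for 1 library, the block called Peg10 (adjusted p = 0.0102) and not Snrpn (0.0502) or Ascl2 (0.0715). Markers of extraembryonic endoderm (11 genes, Afp below 10 everywhere) summed to 4779 to 12114 normalised counts in C1 and 5459 to 16647 in C2. Of 9 tested, 0 were called between C1 and C2 (1 at an unadjusted p under 0.05). Between the derived clones 5 of 9 were higher in C2ON3. Their part in the clone differences was not tested.

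Next, each derived clone was compared with its parent in the 13 SunTag libraries without Dox. Guide, subcloning and library preparation cannot be told apart here. C1ON3 differed from C1 in 9 of 32 imprinted genes (5 higher, 4 lower), against 29.3% of all genes tested (16.8% higher, 12.6% lower). Phlda2 measured 1264, 1219, 895 and 929 normalised counts in C1ON3 against 252, 514 and 368 in C1. The groups did not overlap (1.54 ± 0.24, edgeR adjusted p = 0.000747). Tssc4, a splicing factor from the same distal region of chromosome 7, measured 788, 698, 718 and 650 against 195, 368 and 349. It too was separate (1.19 ± 0.20, edgeR adjusted p = 0.00124). Snrpn (0.49), Ndn (necdin, 0.51) and Slc22a18 (0.76) were also higher in C1ON3, and Peg10 (-0.79), Nnat (-0.78), Zdbf2 (-0.67) and Mest (-0.43) lower. Of the 9, Snrpn, Phlda2 and Tssc4 kept their call in every omission of 1 library. C2ON3 differed from C2 in 4 of 32 (1 higher, 3 lower), against 5.3% of all genes (3.25% higher, 2.05% lower). Plagl1 was lower in C2ON3 than in C2, at 347, 276 and 264 normalised counts against 575, 469 and 490 (-0.76 ± 0.20, edgeR adjusted p = 0.0416). It stayed above every C1 and C1ON3 library. Mirg (-0.90), Meg3 (-0.52) and Ndn (0.64) made up the rest, and none of the 4 kept its call in every omission of 1 library.

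The spread of each gene over the SunTag libraries was then split between clone and treatment. The share of the sum of squares of log2(normalised count + 1) was computed for clone and for the LIF by Dox interaction after all other terms. For LIF and for Dox it was computed after clone and the other factor, without the interaction. The shares therefore need not add up to 100%. The median over the 34 genes was 8.36% for clone and 70.0% for treatment (LIF, Dox and their interaction) in Nanog SunTag cells. It was 5.24% and 71.4% in Nanog/Otx SunTag cells. Clone exceeded treatment in 5 genes each time: H19, Mkrn3, Tssc4, Plagl1 and Zrsr1 in the first set, and H19, Ascl2, Plagl1, Zrsr1 and Sgce in the second. For H19 the clone shares were 76.3% and 78.9%, and for Zrsr1 54.9% and 65.1%. At the other end, treatment took 96.0% and 97.5% of the spread of Magel2.

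**Figure D3:**
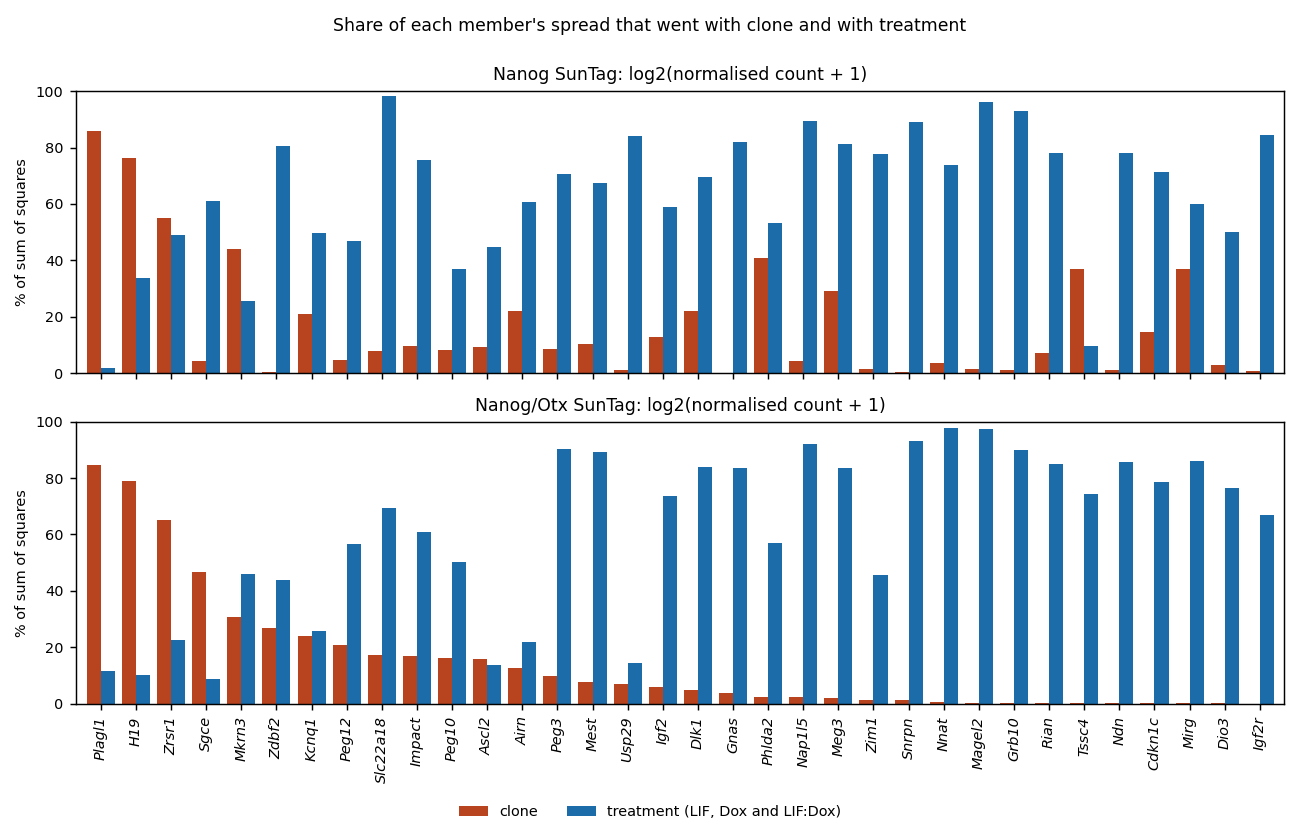
Share (%) of the sum of squares of each imprinted gene that went with clone and with treatment, in Nanog SunTag (top) and Nanog/Otx SunTag cells (bottom), with genes in the order of the clone share in the lower panel. Plagl1, H19 and Zrsr1 are the genes with a larger bar for clone than for treatment in both panels.

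After LIF withdrawal without Dox the share of imprinted genes called was near that of all genes, at 46.9% and 53.1%, and most of those called were higher. In Nanog SunTag cells 15 of 32 were called (14 higher, 1 lower), against 41.5% of all genes (20.2% higher, 21.3% lower). With both guides 17 of 32 were called (15 higher, 2 lower), against 49.8% (24.6% higher, 25.2% lower). The median log2 change was 0.57 and 0.51 over the imprinted genes tested, and -0.05 and -0.01 over all genes. Of 19 paternally expressed genes 9 were called in the first set, all higher, and 11 in the second (10 higher, 1 lower). Of 12 maternally expressed genes 5 were called in each set (4 higher, 1 lower), or 41.7%, which is near or below the share of all genes. Over the same comparison all 9 markers of undifferentiated ES cells were lower and 4 of 4 tested formative markers higher in Nanog SunTag cells. In bulk samples a change in the share of cells of a type and a change per cell cannot be told apart.

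The Snrpn cluster on chromosome 7 held the largest rise, but it did not rise as a whole. With each set of guides 3 of its 5 genes were called, all higher. Mkrn3 and Peg12 were called with neither set. In Nanog SunTag cells without Dox, Mkrn3 was at 270, 109 and 105 normalised counts with LIF and at 151, 146 and 101 without. Peg12 reached 30.2 with LIF and 18.1 without. Magel2 (mm9 chr7:69521865-69526526, plus strand), a paternally expressed MAGE protein that acts with ubiquitin ligases, was at 10.7, 11.7 and 13.7 normalised counts with LIF and at 843, 562 and 669 without. The groups lay far apart (5.79 ± 0.49, a 55.2-fold rise, edgeR adjusted p = 7.84e-06). The values with LIF rest on 4, 7 and 11 estimated counts, so that the fold is imprecise. With both guides Magel2 went from 39.6, 19.8 and 13.9 to 989, 915, 723 and 637 (4.86 ± 0.31, edgeR adjusted p = 1.38e-08). The 13.9, in C2ON3-1, rests on 3 estimated counts. Snrpn (mm9 chr7:67127388-67285105, minus strand) rose from 3864, 3773 and 4436 to 10885, 9551 and 10540 (1.34 ± 0.17, edgeR adjusted p = 0.000107), and by 1.54 ± 0.12 with the second set of guides. Ndn rose as well (1.20 ± 0.25 and 1.27 ± 0.18, edgeR adjusted p = 0.00285 and 3.48e-05). Each clone showed these rises. No member was called for a clone by LIF interaction in Nanog SunTag cells (10 of 32 at an unadjusted p under 0.05). Of all genes, edgeR called 0.0832% there (0.064% higher, 0.0192% lower). DESeq2 called 0 members, against 1.02% of all genes.

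Outside that cluster, Nnat (mm9 chr2:157385814-157388258, plus strand), a paternally expressed small membrane protein of neurons, rose from 236, 287 and 268 to 3116, 1820 and 1662 normalised counts (3.04 ± 0.35, edgeR adjusted p = 6.36e-05). It rose from 151, 152 and 176 to 1494, 1462, 1307 and 1320 in Nanog/Otx SunTag cells (3.12 ± 0.21, adjusted p = 2.68e-08). Peg3 rose by 2.47 ± 0.45 and 1.37 ± 0.27 (edgeR adjusted p = 0.00126 and 0.000639), so that it differed with both clone and LIF. Igf2 rose by 2.18 ± 0.48 and 1.74 ± 0.33. Grb10 (an adaptor that dampens insulin and IGF signalling, 0.97 and 0.76), Gnas (the stimulatory G protein subunit, 0.80 and 0.97), Nap1l5 (1.55 and 2.10), Mest (0.55 and 0.60) and Meg3 (1.18 and 1.24) rose with both sets. Of the Dlk1-Dio3 cluster, Dlk1 (1.82), Mirg (1.17) and Rian (0.83) were called in Nanog/Otx SunTag cells. Zim1 (2.75), Zdbf2 (0.69) and Igf2r (0.54) were called in Nanog SunTag cells. Zim1 entered the test there only through the groups without LIF, at 34.4 to 71.1 normalised counts against 3.35 to 8.74 with LIF without Dox. Called in Nanog/Otx SunTag cells were Impact (0.54) and Zrsr1 (-0.81). Slc22a18 fell with both (-2.15 and -2.19). Over omissions of 1 library, Igf2r, Meg3, Mest and Zdbf2 lost their call in the first set at least once, and Mest, Impact and Zrsr1 in the second. Impact and Zrsr1 were also the called genes whose groups overlapped.

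The clones are not evenly spread over these groups: with LIF without Dox there are 1 C1 and 2 C2 libraries, and without LIF 2 C1 and 1 C2. For genes that differ between clones, the comparison without a clone term therefore mixes clone with LIF. H19 is the clearest case. Its group means were 1295 with LIF and 1947 without (0.58 ± 0.95, edgeR adjusted p = 0.65). With clone as a block, LIF withdrawal raised it by 1.65 ± 0.25 (adjusted p = 0.000367), and in Nanog/Otx SunTag cells by 0.92 ± 0.20 (adjusted p = 0.0012). Within clones, C1 went from 214 to 1117 and 927, and C2 from 2015 and 1657 to 3797. Rian (0.75), Mirg (0.98), Dlk1 (1.65) and Zrsr1 (-0.58) were also called in Nanog SunTag cells with the block, which brought the count to 20 of 32 against 46.3% of all genes. Plagl1 behaved otherwise. With the block it changed by 0.10 ± 0.28 in Nanog SunTag cells (edgeR adjusted p = 0.785) and fell by 0.40 on the log2 scale in Nanog/Otx SunTag cells (adjusted p = 0.0166), where its clone difference was 2.31 ± 0.089.

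**Figure D4:**
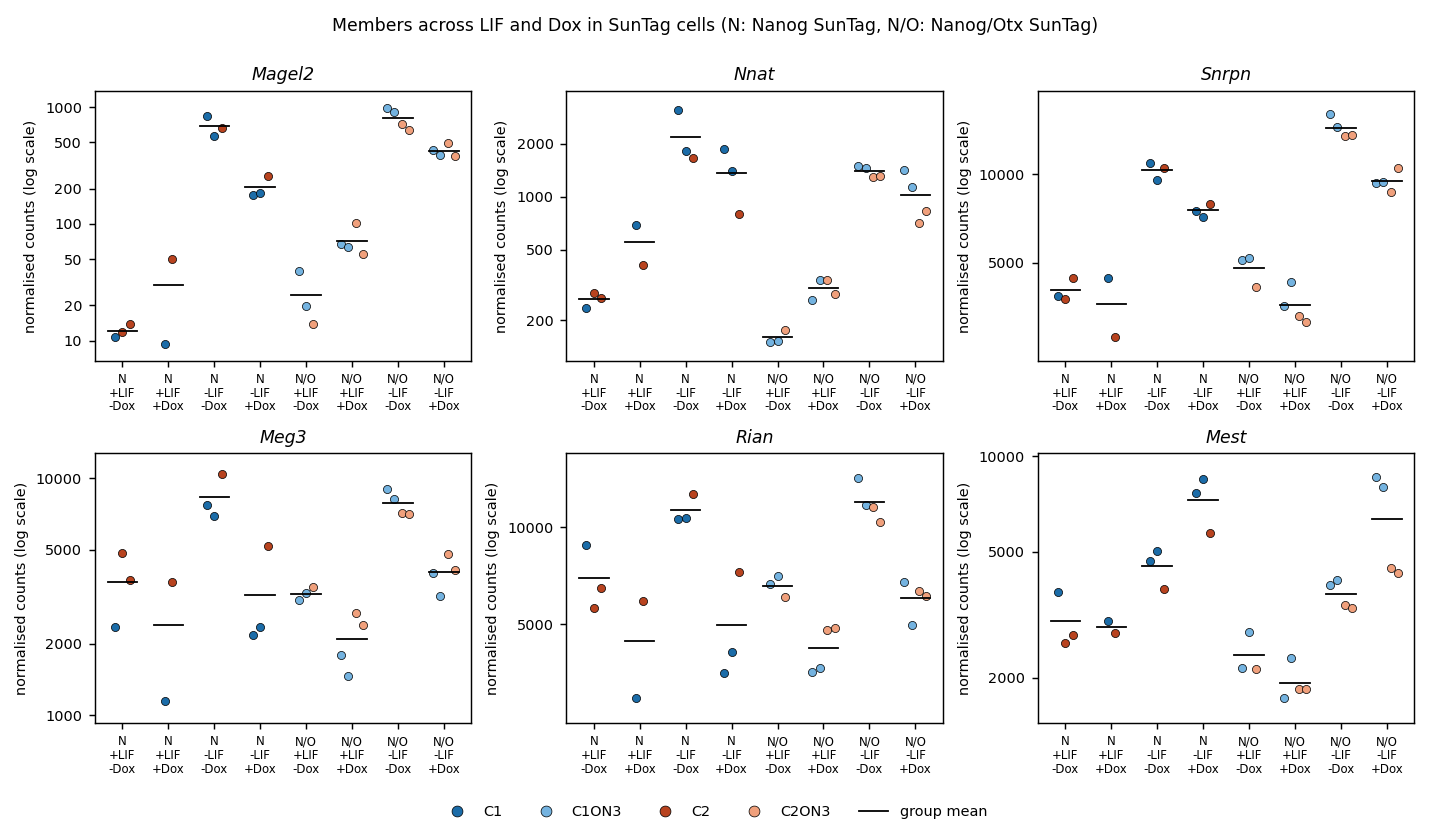
Normalised counts (log scale) of 6 imprinted genes in the 26 SunTag libraries by guides, LIF and Dox, coloured by clone, with group means as bars. Magel2 lies at 10.7 to 39.6 with LIF without Dox and at 562 to 989 without LIF and Dox, whichever the clone.

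Dox without LIF keeps Nanog high while LIF is absent. This comparison shares the libraries without LIF and Dox with that of LIF withdrawal, so that the changes of one are not read against those of the other. In Nanog SunTag cells 2 of 32 were called, both lower, against 5.14% of all genes (3.6% higher, 1.54% lower). Magel2 fell from 843, 562 and 669 to 178, 185 and 258 normalised counts, with no overlap (-1.71 ± 0.37, edgeR adjusted p = 0.0207). Gnas fell from 7621, 6620 and 5497 to 4314, 4013 and 3975 (-0.65 ± 0.17, adjusted p = 0.0446). Neither call survived every omission of 1 library. In the same comparison 7 of 9 markers of undifferentiated ES cells, a list that includes the targeted gene Nanog, were higher. Of 4 tested formative markers 2 were lower. The part of these markers in the changes was not tested. With clone as a block 10 were called (1 higher and 9 lower), against 8.8% of all genes. These were Meg3 (-1.45 ± 0.21, edgeR adjusted p = 0.00152), Mirg (-1.55 ± 0.21, adjusted p = 0.000994), Rian (-1.20), Dlk1 (-1.49), H19 (-1.25), Igf2 (-1.43), Ndn (-0.83), Magel2, Gnas and, in the other direction, Mest (0.72 ± 0.12, adjusted p = 0.0043).

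In Nanog/Otx SunTag cells, where Dox raises Nanog and Otx2 together, 10 of 32 were called without LIF (3 higher, 7 lower), against 17.3% of all genes (11.2% higher, 6.15% lower). Rian (14212, 11703, 11553 and 10399 to 6753, 4965, 6332 and 6105) fell by 0.95 ± 0.13 on the log2 scale (edgeR adjusted p = 0.000169). Mirg fell by 1.12 ± 0.15 (adjusted p = 0.000162) and Meg3 by 0.93 ± 0.17 (adjusted p = 0.00172). The maternally expressed RNAs of the Dlk1-Dio3 cluster thus fell together, and their groups did not overlap. Grb10 (-0.63 ± 0.084, edgeR adjusted p = 0.000152), Snrpn (-0.56), Magel2 (-0.91) and Igf2 (-1.09) were lower too. Mest went the other way, from 3911, 4055, 3385 and 3328 to 8563, 7994, 4431 and 4267 (0.82 ± 0.20, edgeR adjusted p = 0.0111). The rise was larger in the libraries of C1ON3 than in those of C2ON3, and this difference without LIF was not tested by itself. The clone by Dox interaction of Mest, fitted over cells with and without LIF together, was not called (-0.35 ± 0.17, edgeR adjusted p = 0.883). Dio3, the deiodinase that inactivates thyroid hormone (1.31), and Slc22a18 (1.25) were higher. Dio3 was tested only through the groups with Dox, where it had 22.2 to 36.3 normalised counts without LIF against 8.33 to 15.9 without Dox, so that it could enter the test only by being higher with Dox. The call of Igf2 was lost without C1ON3-2 without LIF with Dox (0.0581), and that of Slc22a18 in 8 of 15 omissions of 1 library (adjusted p up to 0.127). The other calls held in every omission. Of the markers, 7 of 9 of undifferentiated ES cells were higher, and of 5 tested formative markers 1 was higher and 1 lower. These lists include the targeted genes Nanog and Otx2, whose rise with Dox was set by the design. The part of the markers was not tested. With the block, 14 were called (5 higher, 9 lower) against 33.4% of all genes.

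Dox with LIF was compared next. Under the guide to Nanog alone, 0 of 32 imprinted genes were called by edgeR, and 9 had an unadjusted p under 0.05. Of all genes, edgeR called 0.563% (0.422% higher, 0.141% lower). DESeq2 called 2 imprinted genes, against 3.76% of all genes. With clone as a block, Cdkn1c (a cyclin-dependent kinase inhibitor, -1.05 ± 0.20, edgeR adjusted p = 0.0287) and Grb10 (-0.94 ± 0.20, adjusted p = 0.0381) were lower. That block called 1.88% of all genes. With both guides 13 of 32 were called (5 higher, 8 lower), against 22.9% of all genes (12.9% higher, 10.0% lower). Grb10 (mm9 chr11:11830511-11938686, minus strand) fell from 8233, 7453 and 6995 to 4772, 4520, 3731 and 3956 normalised counts, with no overlap (-0.82 ± 0.090, edgeR adjusted p = 6.17e-05). Lower were also Peg10 (-0.85), Cdkn1c (-0.82), Phlda2 (-0.72), Mirg (-0.68), Rian (-0.62), Meg3 (-0.62) and Snrpn (-0.41). Magel2 (1.39 ± 0.30, edgeR adjusted p = 0.00448), Dio3 (1.37), Nnat (0.97), Ndn (0.86) and Igf2r (the receptor that clears Igf2, 0.45) were higher. Dio3 again entered the test only through the groups with Dox, at 15.1 to 33.7 normalised counts with LIF against 7.93, 9.26 and 13.4 without Dox. Over omissions of 1 library, Igf2r, Rian, Ndn, Magel2, Grb10 and Nnat kept their call each time. It was lost in 4 of 15 omissions for Meg3 and Phlda2, 3 for Peg10, 2 for Snrpn and 1 each for Mirg, Cdkn1c and Dio3, with adjusted p-values up to 0.129. With the block 20 were called (8 higher, 12 lower) against 41.0% of all genes, Plagl1 among them (0.63 ± 0.13, adjusted p = 0.00225).

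For some members the Dox effect itself depended on LIF. Magel2 had a LIF by Dox interaction of -3.09 ± 0.66 in Nanog SunTag cells (edgeR adjusted p = 0.0378) and of -2.30 ± 0.37 in Nanog/Otx SunTag cells (adjusted p = 0.0014). In the latter, Nnat (-1.38 ± 0.26, adjusted p = 0.00416), Ndn (-1.04 ± 0.23, adjusted p = 0.0115), Igf2r (-0.43, adjusted p = 0.0444) and Mest (1.09 ± 0.29, adjusted p = 0.0276) were called as well, which made 5 of 32 (1 higher, 4 lower) against 9.7% of all genes (5.15% higher, 4.55% lower). In Nanog SunTag cells it was 1 of 32, against 1.93% of all genes (1.32% higher, 0.608% lower). Only Magel2, Nnat and Ndn in Nanog/Otx SunTag cells kept the interaction in every omission of 1 library. With the block the counts were 6 and 13, against 4.54% and 21.8% of all genes.

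The response to LIF differed between clones for 2 of 32 imprinted genes in Nanog/Otx SunTag cells, against 2.93% of all genes (1.9% higher, 1.03% lower). Phlda2 went from 1264 and 1219 with LIF to 895 and 929 without it in C1ON3, and from 935 to 1471 and 1324 in C2ON3, both without Dox. The interaction over all 15 libraries was 0.93 ± 0.11 (edgeR adjusted p = 0.00379) and was not called (0.123) without C2ON3-1 with LIF without Dox, the shallowest library. Cdkn1c (0.83 ± 0.20, edgeR adjusted p = 0.0428) lost its call in 13 of 15 omissions. The number block called 6 members, against 8.12% of all genes. For the response to Dox, 0 of 32 were called in either system by edgeR (6 and 4 at an unadjusted p under 0.05). Of all genes, edgeR called 0.0% and 0.032%, the latter 0.00641% higher and 0.0256% lower. DESeq2 called 1 and 1 members, against 0.282% and 0.199% of all genes. Neither Plagl1 nor H19 was called for any of these interactions.

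In 44iN cells, 24 h without Dox gave 0 called imprinted genes of 30 by edgeR and 0 by DESeq2. Of all 14376 genes, edgeR called 0.0%, so that Nanog itself was not called, and DESeq2 0.981%. The lack of calls therefore does not show that the imprinted genes were stable. Same-numbered libraries with Dox and 24 h without it deviated together (correlation 0.732). With the number as a block, edgeR called 8 imprinted genes (4 higher, 4 lower), against 13.3% of all genes. That fit left 1 residual degree of freedom. Without the block, 5 members had an edgeR unadjusted p under 0.05. The 5 were H19 (1.24 ± 0.37), Rian (0.61 ± 0.21), Peg10 (0.98 ± 0.37), Grb10 (-0.92 ± 0.28) and Dio3 (-3.29 ± 0.96), each at an edgeR adjusted p of 0.508 to 0.655. Dio3 was tested only through the group with Dox, at 10.9 and 17.1 normalised counts against 2.40 and 0 after 24 h. It could thus enter the test only by being lower after 24 h. Long-term culture without Dox differed from 24 h in 4 of 31 (3 higher, 1 lower), against 3.16% of all genes (1.44% higher, 1.72% lower). H19 was at 1674 and 1118 normalised counts in LT and at 271 and 245 after 24 h (2.52 ± 0.28, edgeR adjusted p = 0.0245). Magel2 was at 127 and 148 against 28.8 and 23.7 (2.46 ± 0.41, adjusted p = 0.0382), and Nnat at 142 and 194 against 50.4 and 23.7 (2.24 ± 0.45, adjusted p = 0.0497). Zdbf2, a paternally expressed gene with a role in the brain, was lower, at 7869 and 7177 against 24310 and 21687 (-1.53 ± 0.25, adjusted p = 0.0382). None of the 4 kept its call in every omission of 1 library. In the same comparison 7 of 9 tested markers of extraembryonic endoderm were higher, with sums of 29729 to 43476 normalised counts in LT against 7560 to 8908 in the other 44iN libraries. Their part in the rise of H19 was not tested. Plagl1 was at 58.5 and 36.8 in LT, 298 and 172 after 24 h and 480 and 250 with Dox, and was not called in these comparisons without a block. Igf2 differed widely within groups, at 1244 and 101 with Dox and 1721 and 192 after 24 h, against 1410 and 1690 in LT.

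Finally, lines in LIF were compared with Tg2a. These 3 comparisons share the Tg2a libraries. 44iN with Dox differed in 6 of 33 (2 higher, 4 lower), against 3.38% of all 15578 genes (1.13% higher, 2.25% lower). Grb10 was at 10962, 11009 and 10514 normalised counts in Tg2a, and at 2343 and 1538 in 44iN with Dox (-2.50 ± 0.24, edgeR adjusted p = 0.00215). In LT it was at 1067 and 1227 (-3.28 ± 0.25, adjusted p = 0.000591). Every 44iN library, with Nanog or without, was thus below every Tg2a and SunTag library for this gene. Zrsr1 was at 592, 582 and 574 in Tg2a against 1479 and 1305 in 44iN with Dox (1.23 ± 0.16, edgeR adjusted p = 0.00598) and 1017 and 1141 in LT (0.85 ± 0.16, adjusted p = 0.026). Mest, at 3478, 3638 and 3566 in Tg2a, was at 1311 and 746 in 44iN with Dox (-1.81 ± 0.30, adjusted p = 0.016) and at 574 and 339 in LT (adjusted p = 0.00267). Snrpn was higher in both (0.97 ± 0.20, adjusted p = 0.0326, and 1.82 ± 0.20, adjusted p = 0.00276). H19, at 97.1 and 107 against 737, 1499 and 2357, was lower in 44iN with Dox (-3.93 ± 0.89, adjusted p = 0.0459), as was Nnat (-1.49, adjusted p = 0.0465). All 9 tested extraembryonic endoderm markers were lower there too, and their part in the level of H19 was not tested. LT differed from Tg2a in 7 of 33 (5 higher, 2 lower), against 2.73% of all genes (1.01% higher, 1.72% lower). Magel2 (2.10), Peg10 (1.58) and Impact (0.98) completed that list. Grb10 and Zrsr1 in 44iN with Dox, and Mest, Snrpn and Grb10 in LT, kept their calls in every omission of 1 library.

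**Figure D5:**
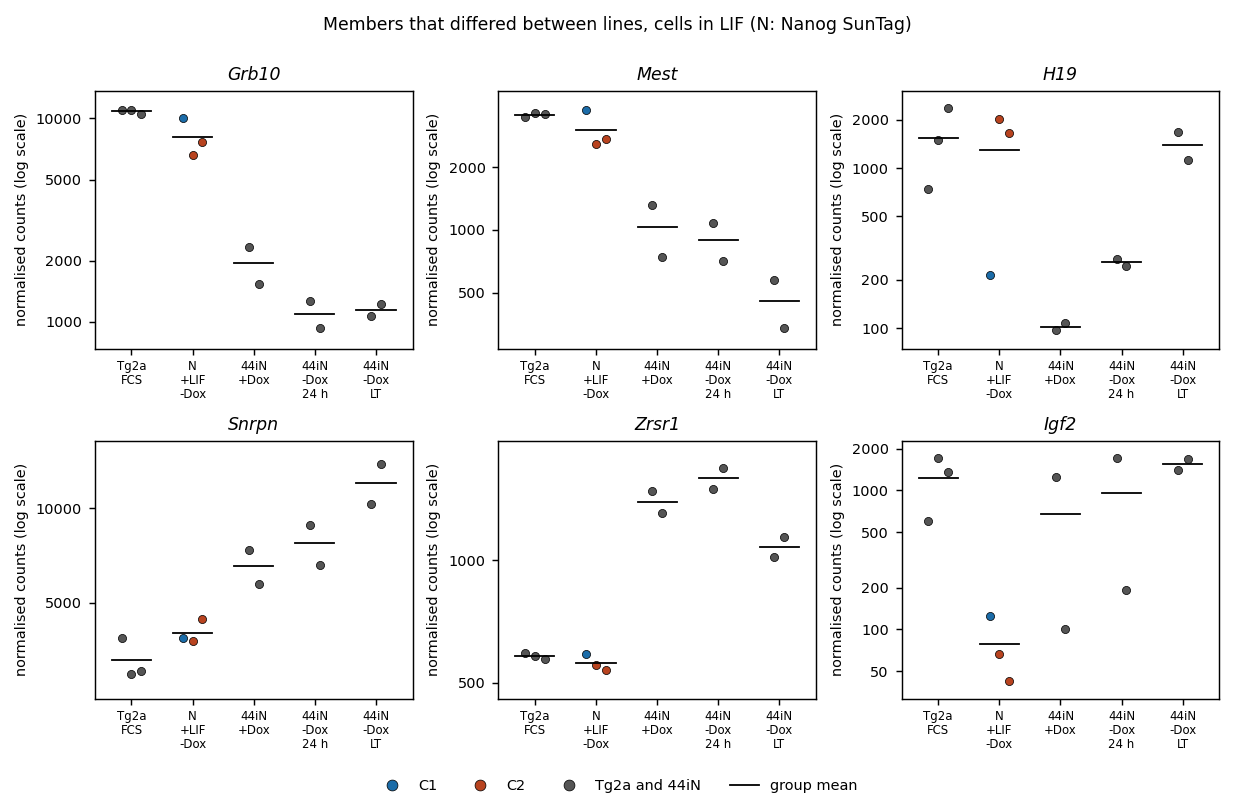
Normalised counts (log scale) of 6 imprinted genes in Tg2a, Nanog SunTag without Dox and the 3 groups of 44iN, all with LIF, with group means as bars. Grb10 is at 2343 or less in all 6 libraries of 44iN and at 6651 or more in the others shown.

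Nanog SunTag cells without Dox differed from Tg2a in 11 of 33 (2 higher, 9 lower), against 20.5% of all genes (9.83% higher, 10.7% lower). Igf2 was at 606, 1708 and 1354 in Tg2a and at 126, 67.0 and 42.4 in the SunTag clones (-4.04 ± 0.83, edgeR adjusted p = 0.0221). Both clones were far below the wild-type line. Peg3 (-1.83), Peg10 (-1.46), Magel2 (-1.35), Impact (-1.10), Zdbf2 (-1.09), Rian (-0.80) and Zim1 (-2.70) were lower, and Ascl2 (a basic helix-loop-helix factor of the trophoblast lineage, 2.05) and Phlda2 (1.94) higher. Airn, at 10.7 to 16.8 in Tg2a and 0 to 3.35 in the SunTag clones, was tested only through the Tg2a group. Zim1, at 31.0 to 52.1 in Tg2a and 3.35 to 8.74 in the SunTag clones, was tested only through the Tg2a and 44iN groups. None of the 11 kept its call in every omission of 1 library. In this comparison 7 of 9 tested extraembryonic endoderm markers and 3 of 5 trophoblast markers were lower, and their part in the lower imprinted genes was not tested. Plagl1 and H19 are not in this list: for both, the C1 library lay below the Tg2a range and both C2 libraries within it.

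Over the SunTag comparisons without the block, 16 of 32 imprinted genes were called between clones at least once in 2 comparisons and 24 for LIF or Dox at least once in 6. Of all 16210 genes tested, 35.1% and 66.8% were called at least once in the same comparisons. The 2 lists pool unequal numbers of comparisons and are not set against each other. Of the imprinted genes, 11 were in both lists, 13 in the treatment list alone, and H19, Mkrn3, Plagl1, Sgce and Peg12 in the clone list alone. With the block H19, Plagl1, Mkrn3 and Peg12 were called for a treatment too, so that the second list depends on it. Peg12 was not called with the numbers of the column names (adjusted p = 0.0537). Usp29, at 18.8 to 110 normalised counts over all libraries, was called in no comparison, and Kcnq1 was not tested in any.

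Other imprinted genes were counted in the same fits. Of 44 listed, 39 have a row. Between C1 and C2, 3 of 29 tested were called (1 higher, 2 lower), and between the derived clones 13 of 30 (9 higher, 4 lower). Of all genes, 7.23% and 35.2% were called there. Sfmbt2 (-1.13, edgeR adjusted p = 0.00504, and -0.72, adjusted p = 0.0129) and Slc38a4 (-0.33, adjusted p = 0.049, and -0.35, adjusted p = 1.05e-05) were lower in the C2 lineage and Gatm higher (0.92, adjusted p = 0.048, and 0.75, adjusted p = 0.000394) in both. LIF withdrawal called 15 of 29 (8 higher, 7 lower) and 19 of 30 (9 higher, 10 lower), against 41.5% and 49.8% of all genes. Whether this split of directions differs from that of the imprinted genes described above was not tested.

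Of 18 regulators of imprints, 2 were called between C1 and C2 (1 higher, 1 lower) and 3 between the derived clones (1 higher, 2 lower). These comparisons called 7.23% and 35.2% of all genes. Dppa3, which protects maternal imprints in the zygote, was at 87.1 to 308 normalised counts in C1 and at 20.1 to 49.9 in C2, with no overlap (-1.98 ± 0.34, edgeR adjusted p = 0.00639), and was also lower in C2ON3 (-1.46 ± 0.28, adjusted p = 0.000988). The de novo methyltransferase Dnmt3a was higher in the C2 lineage (0.47 ± 0.10, adjusted p = 0.0196, and 0.56 ± 0.068, adjusted p = 1.5e-05). Dnmt1 did not pass the test between C1 and C2 (0.24 ± 0.13, adjusted p = 0.261). C1ON3 differed from C1 in 9 of the 18, all lower, against 29.3% of all genes (12.6% lower). C2ON3 differed from C2 in 0, against 5.3%. LIF withdrawal moved 13 of 18 (9 higher, 4 lower) and 10 of 18 (5 higher, 5 lower), against 41.5% and 49.8% of all genes. Zfp57, the zinc finger protein that guards imprints (-3.28 and -3.23), and the dioxygenase gene Tet2 (-3.09 and -3.83) fell with either set of guides, whereas Dnmt3b (4.07 and 3.38) and Dnmt3a (1.65 and 1.99) rose. Dox without LIF raised Zfp57 (2.45 and 2.34) and Tet2 (2.93 and 2.42) in both systems. Their part in the levels of the imprinted genes was not tested.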

How the data were processed

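RNA was made into stranded polyA libraries and sequenced in 35 samples of 12 groups. The estimated counts were made by the authors with STAR and RSEM on mm9, after CASAVA 1.8, and were deposited as whole numbers. The deposited normalised counts are a signal, made by the authors by dividing these counts by DESeq2 size factors over all 35 libraries. Reads were counted by strand, so that antisense pairs such as Airn and Igf2r are told apart. All columns used were matched to samples by name.

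Estimated counts were tested in edgeR 4.0.16 (R 4.3.3) by the quasi-likelihood test with TMM normalisation, with Benjamini-Hochberg adjustment over all genes tested and a threshold of 0.05. A gene entered a model when 1 or more of its groups had no library under 10 normalised counts. SEs are the absolute log2 change over the square root of F. The clone models held the 4 conditions and clone. The LIF and Dox models held LIF, Dox and their interaction with no clone term, after the study's methods. Parental comparisons held LIF and clone, and 44iN and line comparisons held group. A group covers LIF at 10 ng/mL and Dox at 1 µg/mL where given. Sums of squares were of type II with a pseudocount of 1. Alternatives were DESeq2 1.42.0, its size factors, other filters, subsets of the samples, a replicate block, a pseudocount of 10 and each library left out. Replicate numbers are those of the sample titles. For 4 SunTag libraries the deposited column name ends in another number, 1 of them in Nanog/Otx SunTag cells (C2ON3-1 with LIF without Dox). A block with the column numbers was added after seeing the data. The test was tried on simulated counts. All 34 genes with a row were named, with values by library mainly for called genes whose mean reached 100. The members and lists were chosen with earlier results of these data known.

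Clones pair the SunTag libraries by design, since each is a cell line. In Nanog/Otx SunTag cells same-numbered libraries of a clone also deviated together, with 9 of 9 correlations between 0.295 and 0.548 over 11897 genes. No 2 libraries of a group agreed within sampling noise (chi-square per degree of freedom 9.15 to 200). Precision follows library totals of 6107512 to 92244655 and the 2 to 4 libraries of a group.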

Additional observations from a re-analysis of the deposited data

Results flagged for a closer look

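In the 3 groups of 4 libraries, 6 of 102 tests found a single library set apart from the other 3 by the Dixon gap criterion, where chance gives about 1 in 20. The 3 groups are all of Nanog/Otx SunTag cells, and each mixes libraries of C1ON3 and C2ON3. All 6 single libraries were of C1ON3 with Dox, and whether they gather there was not tested. With LIF, Kcnq1 was at 11.49 normalised counts in C1ON3-1 against 1.527 to 3.015 in the others, and Airn at 3.015 in C1ON3-2 against 0 to 0.5089. Without LIF, Peg10 was at 3503 in C1ON3-1 against 4972 to 5035, and Peg12 at 23.29 in C1ON3-1 against 9.34 to 11.42. Igf2r was at 4212 in C1ON3-2 against 4397 to 4424, and Cdkn1c at 1524 in C1ON3-2 against 1695 to 1713.

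The effect of Dox differed with LIF (log2 difference of the changes) for Magel2 in Nanog SunTag cells (-3.094). In Nanog/Otx SunTag cells it did so for Magel2 (-2.301), Nnat (-1.376), Ndn (-1.037), Igf2r (-0.4292) and Mest (1.094). The effect of LIF differed between C1ON3 and C2ON3 for Phlda2 (0.9331) and Cdkn1c (0.834).

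For 4 genes every treated library lay on one side of the mean of its untreated group with the guide to Nanog alone and on the other side with both guides, and the difference was not tested. Within clones not every library moved that way: in C2, Dio3 went from 8.60 to 10.8 normalised counts with Dox without LIF and Igf2r from 3032 and 2893 to 3053 with Dox with LIF, and in C1ON3-1, Zdbf2 went from 3908 to 4510 without LIF. LIF withdrawal changed Zim1 by 2.752 in Nanog SunTag and -0.5389 in Nanog/Otx SunTag cells on the log2 scale, and Zdbf2 by 0.6938 and -0.1144. Dox with LIF changed Igf2r by -0.3496 and 0.4517, and Dox without LIF changed Dio3 by -1.605 and 1.311.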

How the results depend on the processing

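Over 2414 refits of called genes, 2009 kept direction and call, 405 kept direction and lost the call, and 0 reversed. Of 127 called pairs of gene and comparison, 54 held in every alternative run and 62 in every omission of 1 library. The design limits these results: 1 clone a lineage, 2 to 4 libraries a group and, for Airn and Kcnq1, few counts. The causes of the changes below were not tested beyond the libraries and genes each setting leaves out or adds. Where no share of all genes is given, a count is not read as particular to imprinted genes.

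Paired fits had clone or the replicate number as a block. In Nanog SunTag cells they called 2 imprinted genes for Dox with LIF (none without the block), against 1.88% of all genes. For Dox without LIF they called 10 there (2 without), against 8.8%. In Nanog/Otx SunTag cells they called 20 for Dox with LIF (13 without), against 41.0%, and 6 for clone by LIF (2 without), against 8.12%. For the LIF by Dox interaction they called 6 and 13 (1 and 5 without), against 4.54% and 21.8%. With the number taken from the column names in place of the titles, a setting chosen after seeing the data, the block called 14 for the LIF by Dox interaction, 7 for clone by LIF and 19 for Dox with LIF in Nanog/Otx SunTag cells. In that order, it called 21.3%, 7.99% and 41.8% of all genes. Clone as a term without the number called 12 for the LIF by Dox interaction in Nanog/Otx SunTag cells, against 18.5% of all genes. In 44iN, samples share only a number: the deviations of same-numbered libraries correlated at 0.732 between Dox and 24 h without, and at 0.0913 and 0.0707 with LT. A block of the number called 8 imprinted genes for Dox removal for 24 h (0 without it), against 13.3% of all genes. That fit left 1 residual degree of freedom.

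DESeq2's Wald test called 2 genes for Dox with LIF and 8 without LIF in Nanog SunTag cells, 3 and 8 for the LIF by Dox interactions, 1 and 1 for clone by Dox, 6 for clone by LIF in Nanog/Otx SunTag cells, and 8 for LT against 24 h. In the same order, it called 3.76%, 9.66%, 5.61%, 12.6%, 0.282%, 0.199%, 6.84% and 11.8% of all genes. DESeq2's size factors in edgeR called 2 for C2ON3 against C2. Without a filter on low counts, edgeR called 1 for Dox with LIF, 5 for Dox without LIF, 3 for clone by LIF and 3 for clone by Dox in Nanog SunTag cells, 9 for clone by LIF and 2 for clone by Dox in Nanog/Otx SunTag cells, and 12 for LT against 24 h. The filterByExpr filter called 1 for Dox without LIF in Nanog SunTag cells.

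By samples, the clone difference held for 3 genes without Dox and for 1 with LIF in Nanog SunTag cells (8 in all libraries), and for 3 without Dox in Nanog/Otx SunTag cells (13 in all). All 26 SunTag libraries gave 14 genes for C1ON3 against C1 and 10 for C2ON3 against C2. The 4 libraries alone gave 12 for LT against 24 h.

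Leaving out 1 library at a time, the counts ran from 4 to 11 for C2 against C1, 8 to 13 for C2ON3 against C1ON3, 5 to 12 for C1ON3 against C1 and 0 to 5 for C2ON3 against C2. For LIF they ran from 11 to 16 and from 15 to 17. For Dox in Nanog SunTag cells they were 0 throughout with LIF and 0 to 7 without. In Nanog/Otx SunTag cells they were 7 to 13 with LIF and 8 to 11 without. For the LIF by Dox interaction they were 0 to 1 and 3 to 6, for clone by LIF 0 to 6 and 0 to 5, and for clone by Dox 0 to 8 and 0 throughout. They were 0 to 7 for Dox removal for 24 h, 0 to 13 for LT against 24 h, 0 to 19 for Nanog SunTag against Tg2a, 2 to 7 for 44iN with Dox and 3 to 9 for LT against Tg2a. The clone call of Plagl1 in Nanog SunTag cells held in every omission, but not with the libraries with LIF alone (edgeR adjusted p = 0.058). The clone shares of the sum of squares moved little with a pseudocount of 10, to 76.5% and 78.9% for H19.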
